A study of Homo sapiens with 16 samples.

Results

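The genes of the respiratory chain and ATP synthase were followed through 16 libraries of prostate cancer spheroids, 7 of them treated with siRNAs against MED12 and 9 with a control pool. MED12 encodes a part of the kinase module of Mediator. Members were the genes of the deposited expression table whose symbols name a subunit of complexes I to V, and 96 of the 10566 genes of that table met the rule. They were 11 genes encoded by mitochondrial DNA (MT-encoded), 77 nuclear subunit genes and 8 copies of subunit genes, of which 7 are processed pseudogenes and 1, UQCRHL, is a retrogene. The nuclear subunits belong to complex I in 34 cases, complex II in 4, complex III in 9, complex IV in 12 and complex V in 18, with NDUFA4 counted in complex IV. By the same symbol rule the count table holds 269 genes, and the other 173 had too few counts to be tested, at most 85 counts summed over all libraries.

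LNCaP, 22Rv1 and PC3 are established human prostate cancer cell lines. Transfection used 25 pmol of an siRNA pool, directed either at MED12 (siMED12) or at no human gene (siCtrl), and the cells were kept in 2D for 3 days and then as spheroids for 4 days, so that all groups had been transfected and passed through the same culture steps. The siCtrl groups had 3 libraries per line. With siMED12, LNCaP had 3 libraries, while 22Rv1 and PC3 had 2 apiece, numbered 1 and 3. Each line is 1 established cell line, and the labels do not say whether its replicates came from separate cultures. The methods of the study speak of biological replicates for its experiments in general, without naming these libraries, so the p-values measure the spread between these libraries, which may in part be technical.

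Oxidative phosphorylation passes electrons from NADH and succinate through complexes I to IV to oxygen, and complex V, the ATP synthase, uses the resulting proton gradient to make ATP. A small part of the subunits is encoded by mitochondrial DNA, which is transcribed as long polycistronic RNAs by a dedicated polymerase and cut into individual messages. All other subunits, including the whole of complex II, are encoded in the nucleus, so that most complexes need products of both genomes.

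The libraries held 479118 to 993807 counts with a median of 764494, and a count of 0 allowed a level of up to 3.15 to 6.22 CPM (counts relative to the library total), a limit that covers counting error only. Levels below are CPM with TMM-normalised library sizes, and differences are log2 fold changes with their standard error (SE). MED12 itself had 5 to 22 counts per library. Its level was 9.94 to 12.9 CPM in LNCaP siCtrl against 6.67 to 10.4 in siMED12, 16.7 to 23.4 against 7.42 to 8.98 in 22Rv1, and 8.41 to 28.4 against 14.5 to 15.8 in PC3, so that the groups were apart in 22Rv1 and overlapped in LNCaP and PC3. The study reports a highly efficient MED12 knockdown in its spheroids, and these counts are too few to measure its extent. In LNCaP siCtrl the prostate marker KLK3 had a mean level of 2473 CPM. In 22Rv1 KLK3 stood at 28.9 CPM and TMPRSS2 at 15.6, the latter no higher than the 19.2 of PC3. PC3 had 13.8 CPM of KLK3 and high VIM, CAV1 and ANXA1 (620, 533 and 119 CPM). Restricted genes had a mean of at least 50 CPM in the siCtrl group of 1 line and at most 2 CPM in those of the other 2. Low values in siCtrl libraries were thus set by this choice. A gene raised by siMED12 would count as well, which was not tested. Genes restricted to PC3 stood at 5.50% of their PC3 level in 22Rv1 siMED12 replicate 3 and at 1.22% in 22Rv1 siMED12 replicate 1. They stood at most at 1.43% in any library of LNCaP or 22Rv1 other than that replicate 3. Genes restricted to LNCaP, only 5 of them, stood at 4.00% of their LNCaP level in PC3 siMED12 replicate 3 and at most at 1.91% in any other library of 22Rv1 or PC3. Genes restricted to 22Rv1, 16 of them, stood at 2.33% of their 22Rv1 level in PC3 siCtrl replicate 3. In any other library of LNCaP or PC3 they stood at most at 1.39%. For siMED12 in 22Rv1 and PC3, the calls, the splits by direction and the named genes are also given without the line's siMED12 replicate 3.

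The MT-encoded genes took a larger share of all counts than the 77 nuclear subunit genes in every library. In LNCaP siCtrl the 11 MT-encoded genes held 5.41%, 4.65% and 4.81% of the counts, and the nuclear genes held 2.12%, 2.01% and 2.11%. The corresponding shares were 3.92%, 5.34% and 4.73% against 2.39%, 2.21% and 2.16% in 22Rv1 siCtrl. In PC3 siCtrl they were 5.48%, 5.48% and 6.00% against 1.63%, 1.70% and 1.72%. The nuclear share was therefore lowest in PC3 and did not overlap with that of either other line, whereas the MT-encoded share of LNCaP and 22Rv1 overlapped. Since the libraries hold 3′ tags of polyadenylated RNA, a share of counts follows the number of tagged RNA molecules and also how well each 3′ end was primed.

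MT-CO3, a core subunit of cytochrome c oxidase (complex IV), was by far the most counted member and made up 64.3% to 66.4% of MT-encoded counts in LNCaP siCtrl, 60.2% to 63.4% in 22Rv1 siCtrl and 49.2% to 51.1% in PC3 siCtrl. Its mean level was 34050 CPM (SD 2481, n = 3) in LNCaP siCtrl, 29450 (SD 4039) in 22Rv1 and 28740 (SD 2328) in PC3. The complex I subunit gene MT-ND1 followed with 6444, 5462 and 10070 CPM in the same groups, and MT-ND4 with 3862, 4561 and 5453 CPM. MT-ND2 had 1993, 1784 and 3252 CPM, MT-CO2 had 1634, 1426 and 1764 CPM, and MT-ATP6, the ATP synthase subunit a, had 1327, 1329 and 1830 CPM. MT-CYB, the cytochrome b of complex III, had 936, 900 and 1271 CPM, and its 3 PC3 siCtrl libraries were spread over 1849, 1420 and 543 CPM. The least counted were MT-ND3 with 249, 215 and 325 CPM, MT-ND5 with 222, 247 and 248 CPM and MT-ND4L with 15.1, 15.4 and 23.4 CPM. MT-ND4L ends at base 10766 and MT-ND4 starts at 10760, while MT-ATP6 shares only base 9207 with MT-CO3. The overlaps are thus short, and only a tag within them cannot be given to 1 gene with certainty. MT-ND6 and MT-ATP8, the remaining protein genes of mitochondrial DNA, had 1 to 6 and 0 to 2 counts per library and were not tested.

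**Figure D1:**
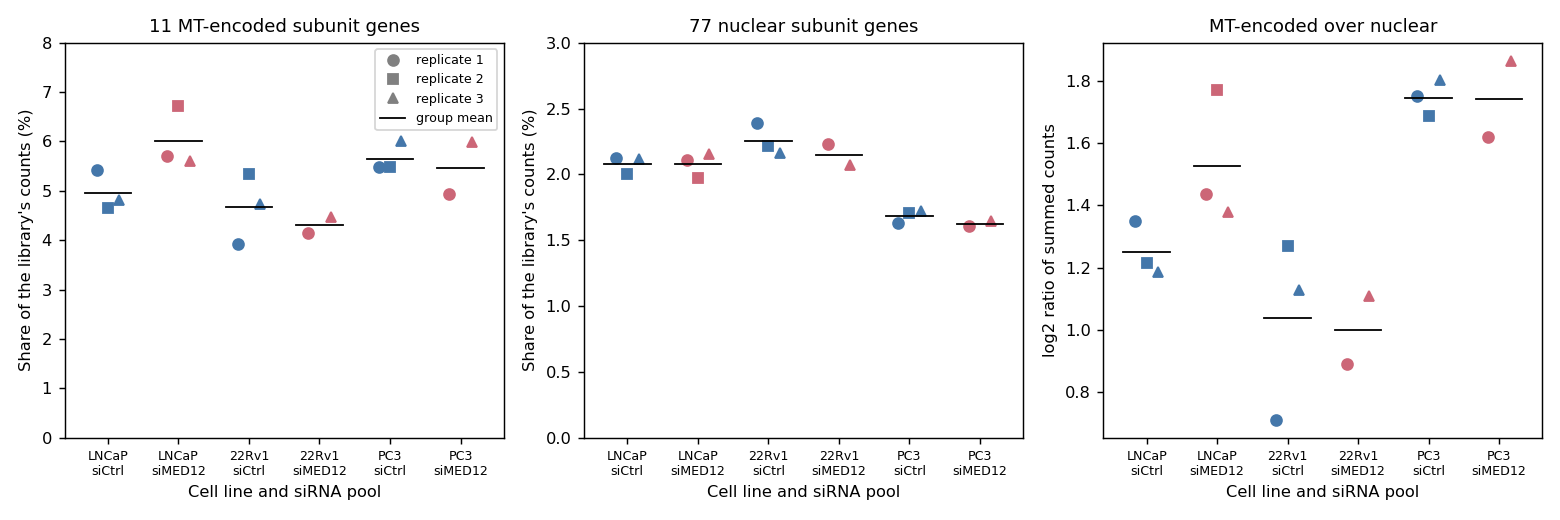
Share of each library's counts held by the 11 MT-encoded and the 77 nuclear subunit genes, and the log2 ratio of the summed counts of both sets, by cell line and siRNA pool. Points are libraries with their replicate number as the symbol, and lines are group means. The nuclear share of PC3 lies under that of LNCaP and 22Rv1, and the log2 ratio of LNCaP siMED12 (1.38 to 1.77) lies just above that of LNCaP siCtrl (1.19 to 1.35).

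The first comparison asked whether siMED12 changed the respiratory chain genes in LNCaP. All 11 MT-encoded genes had a higher level with siMED12, with a median log2 fold change of 0.27 and a range of 0.14 to 0.63, but none passed the threshold of an adjusted p of 0.05 in edgeR's quasi-likelihood test. The 77 nuclear subunits had a median of -0.01 and were divided into 33 higher and 44 lower, and the median over all tested genes was -0.00. Among the 96 members none was called, against 0.416% of all tested genes, and 8 had an unadjusted p under 0.05, of which 5 were MT-encoded. DESeq2 and limma called none either, with 2 and 7 members at an unadjusted p under 0.05. The same direction was seen for all 11 MT-encoded genes under each of the 23 other settings run.

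The summed counts showed the same shift. The MT-encoded share was 5.41%, 4.65% and 4.81% in LNCaP siCtrl and 5.70%, 6.71% and 5.60% in siMED12, whereas the nuclear share was 2.12%, 2.01% and 2.11% against 2.11%, 1.97% and 2.15%. The MT-encoded shares of the groups did not overlap, and the nuclear shares did. The log2 ratio of MT-encoded to nuclear counts differed by 0.28, with a standard deviation (SD) within groups of 0.18, and by 0.16 without siMED12 replicate 2. The lowest siMED12 library stood only 0.03 above the highest siCtrl library. MT-encoded genes are made from shared precursors and are scaled by the same library total, so their common direction is not 11 separate observations.

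MT-ND3, a subunit of the membrane arm of complex I, had 270, 235 and 243 CPM in LNCaP siCtrl and 318, 375 and 317 CPM in siMED12. Its log2 fold change was 0.44 (SE 0.13) with an adjusted p of 0.233 in edgeR's test. MT-CO1, the catalytic subunit of complex IV (mitochondrial DNA, chromosome M, 5904 to 7445), had 1562, 1731 and 1349 CPM in siCtrl and 1634, 3340 and 1802 CPM in siMED12, with a fold change of 0.55 on the log2 scale (SE 0.20, adjusted p = 0.455 in edgeR). Its groups overlapped, replicate 2 alone stood clearly above the rest, and without it the value was 0.16. In LNCaP the libraries with the same replicate number deviated together, and with the replicate number as a block MT-CO1 (0.48 on the log2 scale, SE 0.12, edgeR adjusted p = 0.0306) and MT-ND3 (0.43, SE 0.11, edgeR adjusted p = 0.0495) passed the threshold, making 2 called members. The adjusted p of MT-ND3 ran from 0.0495 to 0.846 over the alternatives.

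ATP5PF, which encodes the coupling factor of the peripheral stalk of ATP synthase, had the highest value among nuclear members with non-overlapping groups in LNCaP, with 76.2, 73.0 and 68.9 CPM in siCtrl against 119, 101 and 85.1 CPM in siMED12. Its log2 difference was 0.48 (SE 0.17, edgeR adjusted p = 0.418). Among the lowest was ATP5PO, another stalk subunit, with 290, 304 and 270 CPM against 256, 231 and 248 CPM, or -0.23 on the log2 scale (SE 0.13, edgeR adjusted p = 0.75). Neither passed the threshold. Of the 96 members 17 had non-overlapping groups in LNCaP, 11 higher and 6 lower, against 12.6% of all tested genes. By complex, the medians of the nuclear subunits were -0.01 for complex I, -0.12 for complex II, -0.04 for complex III, -0.00 for complex IV and -0.03 for complex V.

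**Figure D2:**
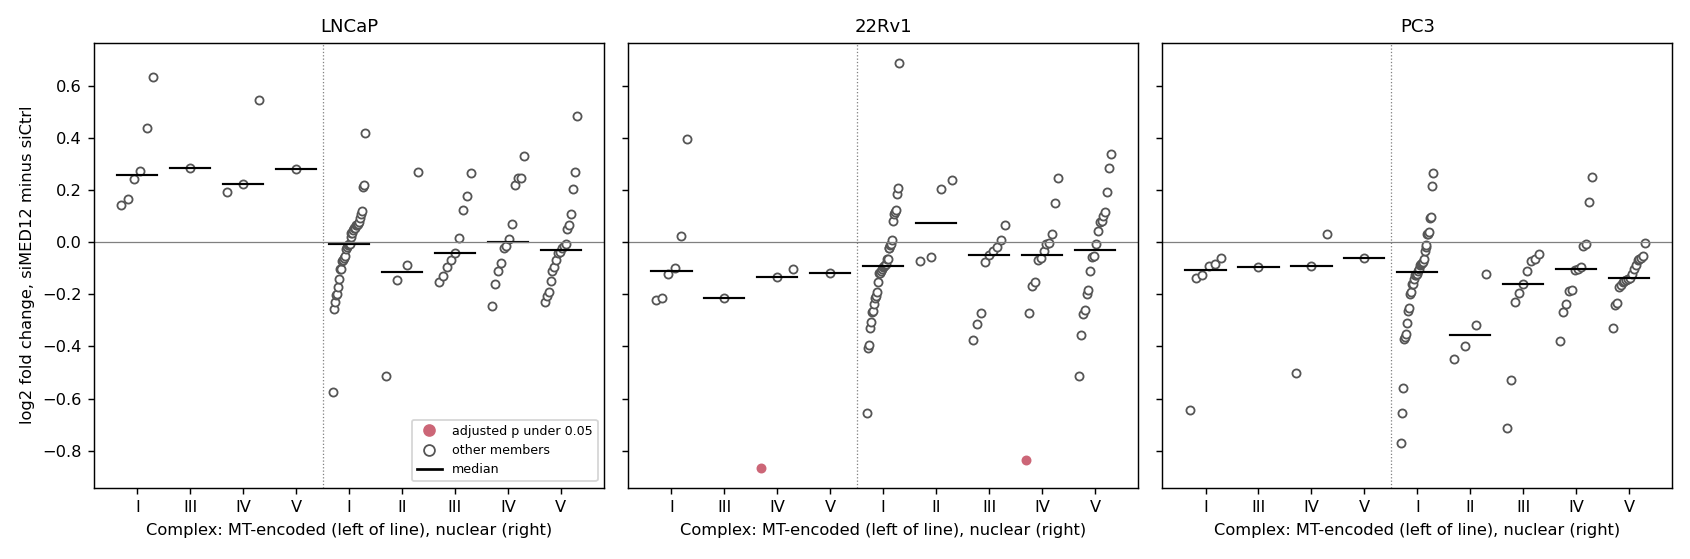
log2 fold changes of siMED12 minus siCtrl for the 88 subunit genes in LNCaP, 22Rv1 and PC3, by complex, with MT-encoded genes left of the dotted line and nuclear genes right of it. Each point is 1 gene, lines are medians, and filled points passed the threshold. The MT-encoded genes lie above 0 in LNCaP, the 2 filled points are MT-CO1 and COX5B in 22Rv1, and no member is filled in LNCaP or PC3.

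In 22Rv1, 2 members passed the threshold and both fell with siMED12, COX5B and MT-CO1, each a subunit of cytochrome c oxidase. That is 2 of 96 members, beside 1.84% of all tested genes, so the share of members called was close to the background. COX5B (chromosome 2, 97646062 to 97648383, plus strand, GRCh38) encodes a nuclear subunit on the matrix side of complex IV that binds zinc. It had 113, 100.3 and 101 CPM in siCtrl and 67.9 and 48.7 CPM in siMED12, so the groups were well apart. Its log2 difference was -0.83 (SE 0.20, edgeR adjusted p = 0.0189). DESeq2 gave the same difference with an adjusted p of 0.095, which missed the threshold. In LNCaP the COX5B groups were also apart, with 114, 98.8 and 91.2 CPM against 86.7, 84.1 and 83.9 CPM, and the fold change of -0.24 (SE 0.17, edgeR adjusted p = 0.817) did not pass. In PC3 they overlapped, with 68.4, 67.3 and 76.6 CPM against 52.8 and 74.7 CPM, and the fold change was -0.19 (SE 0.22), or -0.41 without siMED12 replicate 3 and 0.08 without siMED12 replicate 1. The differences of the COX5B effect between 22Rv1 and LNCaP (-0.59, SE 0.26, edgeR adjusted p = 0.546) and between PC3 and 22Rv1 (0.65, SE 0.30, edgeR adjusted p = 0.512) did not pass the threshold.

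Without 22Rv1 siMED12 replicate 3, the library with counts of PC3-restricted genes, the COX5B fold change in 22Rv1 was -0.63 with an adjusted p of 0.275, and without siCtrl replicate 1 it was -0.78 with an adjusted p of 0.069, both in edgeR. COX5B was lower in PC3 siCtrl than in 22Rv1 siCtrl, and the part of the PC3-restricted counts in its fall was not tested. The sequence before the start of COX5B is shown because COX5B was the 1 nuclear subunit called. Beside it stand SDHB, which differed between the lines, and UQCR11, the lowest nuclear complex III gene of the PC3 comparison. The 200 bases upstream of the RefSeq start (GRCh38.p14) are written on the strand of the gene, 5′ to 3′, with capitals at exact matches on either strand to the NRF1 motif (GCGC and GCGC with any 2 bases between), CCGGAAG (ETS, including GABPA), AANATGGC (YY1, where N is any base) and CACGTG (E-box). The COX5B stretch lies at chr2:97645862-97646061 on the plus strand, that of SDHB at chr1:17054033-17054232 and that of UQCR11 at chr19:1605463-1605662, both on the minus strand.
COX5B: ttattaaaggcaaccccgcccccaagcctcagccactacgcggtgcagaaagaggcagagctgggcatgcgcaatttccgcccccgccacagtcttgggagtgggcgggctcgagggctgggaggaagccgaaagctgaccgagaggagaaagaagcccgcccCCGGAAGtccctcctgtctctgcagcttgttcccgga
SDHB: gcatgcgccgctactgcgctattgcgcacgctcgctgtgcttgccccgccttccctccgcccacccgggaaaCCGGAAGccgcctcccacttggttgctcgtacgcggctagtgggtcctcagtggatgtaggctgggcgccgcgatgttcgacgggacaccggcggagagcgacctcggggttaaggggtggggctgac
UQCR11: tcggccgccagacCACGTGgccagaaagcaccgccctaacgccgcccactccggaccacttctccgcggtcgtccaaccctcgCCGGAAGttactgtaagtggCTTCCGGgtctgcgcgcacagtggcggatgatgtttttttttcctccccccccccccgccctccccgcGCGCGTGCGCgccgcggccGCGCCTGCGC
COX5B and SDHB each show 1 ETS match, and UQCR11 shows ETS, NRF1 and E-box matches. A match is only a match of letters.

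MT-CO1 in 22Rv1 had 1886, 3062 and 1642 CPM in siCtrl and 1134 and 1275 CPM in siMED12. Both siMED12 libraries lay under all siCtrl libraries, while siCtrl replicate 2 stood well above the other two. Its log2 difference was -0.86 (SE 0.23, edgeR adjusted p = 0.0489), just inside the threshold. It missed the threshold in DESeq2 (adjusted p = 0.424) and limma (adjusted p = 0.117). MT-CO1 made up 2.70% and 2.87% of MT-encoded counts in siMED12 against 4.73%, 5.66% and 3.37% in siCtrl. Without siCtrl replicate 2 the fold change was -0.55 with an adjusted p of 0.333, without siMED12 replicate 1 it was -0.80 with 0.325, and without siMED12 replicate 3 it was -0.95 with 0.132, all from edgeR. It also missed the threshold when a single library of another line was left out, with edgeR adjusted p-values of 0.0555, 0.0538 and 0.0546 without LNCaP siCtrl replicates 1, 2 and 3 and 0.0617 without PC3 siMED12 replicate 3. MT-CO1 was higher in PC3 than in 22Rv1. The library with PC3-restricted counts was one of the 2 low ones, and the part of these counts in the result was not tested. A nuclear copy outside the member list, MTCO1P12, had 12 to 132 counts per library beside 943 to 4711 for MT-CO1, and its part in the result was not tested.

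The other 10 MT-encoded genes of 22Rv1 did not pass the threshold, and the median over all 11 was -0.12 with 2 higher and 9 lower. The nuclear subunits had a median of -0.06 with 23 higher and 54 lower, and the median of all tested genes was 0.01. The nuclear split rested on single libraries, with 36 higher and 41 lower without siMED12 replicate 3 and 38 higher and 39 lower without siCtrl replicate 1. The median of the MT-encoded genes was -0.19 without siMED12 replicate 3, with 2 higher and 9 lower. The MT-encoded share was 3.92%, 5.34% and 4.73% in siCtrl and 4.14% and 4.47% in siMED12, and the log2 ratio to nuclear counts differed by -0.04, so these groups overlapped. ATP5MF, subunit f in the membrane part of ATP synthase, had 397, 423 and 367 CPM against 301 and 250.1 CPM, a fold change of -0.51 on the log2 scale (SE 0.15, edgeR adjusted p = 0.0709). CYC1, the cytochrome c1 of complex III, had 918, 816 and 799 CPM against 637 and 667 CPM, or -0.37 on the log2 scale (SE 0.12, edgeR adjusted p = 0.127). Both were apart between the groups and missed the threshold. Without siMED12 replicate 3 the values were -0.39 for ATP5MF and -0.41 for CYC1 (edgeR adjusted p = 0.447 and 0.294). The highest values among members with non-overlapping groups and at least 20 CPM were those of ATP5IF1, the inhibitor of ATP hydrolysis by ATP synthase, at 0.34 (SE 0.17, edgeR adjusted p = 0.458) and NDUFA4 at 0.15 (SE 0.15, edgeR adjusted p = 0.766). Without siMED12 replicate 3 they were 0.27 and 0.15, and without siCtrl replicate 3 NDUFA4 was at 0.06. Altogether 16 members had non-overlapping groups, 4 higher and 12 lower, under the background of 26.6% of all tested genes. Without siMED12 replicate 3, when 1 library stands against 3, 21 were higher and 27 lower beside 52.3% of all genes.

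**Figure D3:**
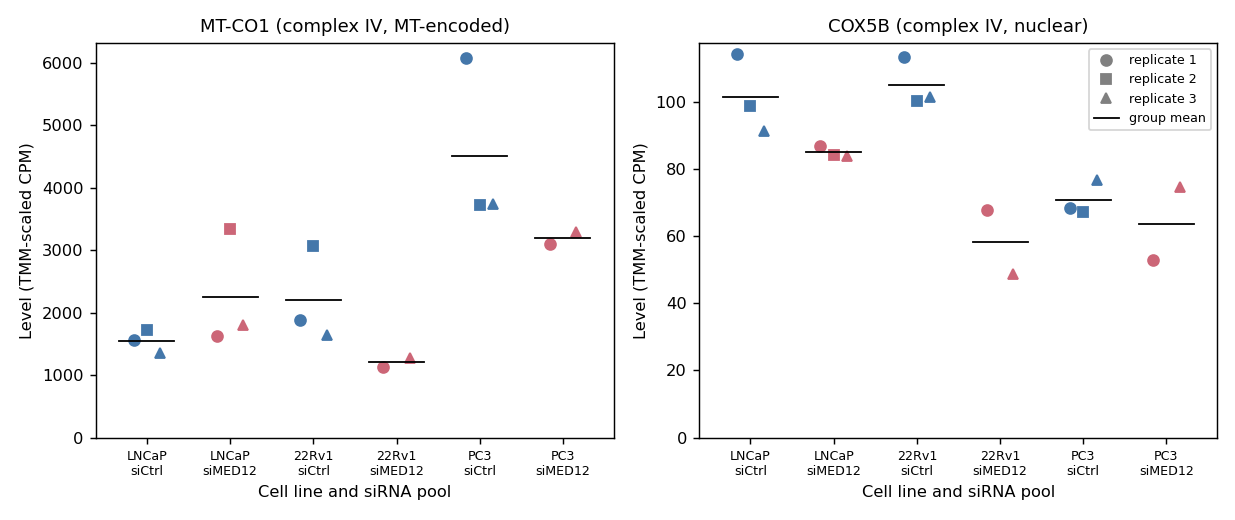
TMM-scaled CPM of MT-CO1 and COX5B in each library by cell line and siRNA pool, with replicate numbers as symbols and group means as lines. In 22Rv1 both genes are lower in the 2 siMED12 libraries, and in LNCaP siMED12 the MT-CO1 level of replicate 2 (3340 CPM) stands apart from 1634 and 1802 CPM.

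In PC3 no member passed the threshold, and neither did any other tested gene (0%), while 5 of the 96 had an unadjusted p under 0.05. DESeq2 and limma called none either, with 1 and 9 members at an unadjusted p under 0.05. The MT-encoded genes had a median of -0.09 with 1 higher and 10 lower, and the nuclear subunits had a median of -0.13 with 9 higher and 68 lower, beside a median of -0.04 over all genes. Groups did not overlap for 23 members, 22 lower and 1 higher, against 20.7% of all tested genes, where the split was 930 higher and 1261 lower. Without siMED12 replicate 3, when 1 library stands against 3, 8 were higher and 57 lower beside 51.9% of all genes. All 18 nuclear subunits of complex V, all 9 of complex III and all 4 of complex II had a fold change below 0, with medians of -0.14, -0.16 and -0.36. UQCR11, a small subunit of complex III, had 71.0, 56.8 and 54.9 CPM in siCtrl and 38.3 and 35.3 CPM in siMED12, a fold change of -0.71 on the log2 scale (SE 0.24, edgeR adjusted p = 0.873). NDUFA9, an accessory subunit of complex I, had 37.4, 33.6 and 44.8 CPM against 23.7 and 24.9 CPM, or -0.65 on the log2 scale (SE 0.33, edgeR adjusted p = 0.974). MT-CO1 had 6077, 3728 and 3747 CPM against 3097 and 3291 CPM, a fold change of -0.50 on the log2 scale (SE 0.23, edgeR adjusted p = 0.974). The groups were apart for each of these 3 genes, but none passed. Without siMED12 replicate 3 the values were -0.66 for UQCR11, -0.68 for NDUFA9 and -0.54 for MT-CO1, and without siCtrl replicate 1 MT-CO1 was at -0.22.

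The directions in PC3 rested on single libraries. The median of the MT-encoded genes was 0.08 without siMED12 replicate 1 and -0.29 without siMED12 replicate 3, so its sign depended on which of the 2 siMED12 libraries was kept. The nuclear subunits were split into 30 higher and 47 lower without siMED12 replicate 1 (median -0.05), 9 and 68 without siMED12 replicate 3 (median -0.18), and 21 and 56 without siCtrl replicate 3.

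Averaged over the lines, no member passed the threshold, against 0.265% of all tested genes, and 9 had an unadjusted p under 0.05 (5 in DESeq2 and 8 in limma, which called none). The mean effect on COX5B was -0.42 (SE 0.11, edgeR adjusted p = 0.136), or -0.35 without 22Rv1 siMED12 replicate 3 and -0.50 without PC3 siMED12 replicate 3. The effects themselves were compared by contrasts within the same fit. MT-CO1 was the 1 member whose effect differed, with a difference of -1.41 (SE 0.31, edgeR adjusted p = 0.0471) for 22Rv1 minus LNCaP, beside 0.189% of all genes. DESeq2 (adjusted p = 0.399) and limma (adjusted p = 0.12) did not call it. PC3 minus LNCaP gave -1.05 for MT-CO1 (SE 0.31, edgeR adjusted p = 0.631) and PC3 minus 22Rv1 gave 0.36 (SE 0.32, edgeR adjusted p = 0.794). No member passed in those contrasts, where 0.0284% and 0.0946% of all genes were called. With the replicate number as a block, MT-CO1 passed for PC3 minus LNCaP as well (-1.07 on the log2 scale, SE 0.19, edgeR adjusted p = 0.00435) and for 22Rv1 minus LNCaP it was at -1.03 (SE 0.19, edgeR adjusted p = 0.00334). All 11 MT-encoded genes had a lower effect in 22Rv1 and in PC3 than in LNCaP, but these contrasts share the LNCaP libraries. The difference for MT-CO1 was -1.02 with an adjusted p of 0.143 without LNCaP siMED12 replicate 2, -1.10 with 0.20 without 22Rv1 siCtrl replicate 2 and -1.51 with 0.0827 without 22Rv1 siMED12 replicate 3 (edgeR). Leaving out LNCaP siCtrl replicate 1, 2 or 3 gave edgeR adjusted p-values of 0.0934, 0.0984 and 0.148, and 22Rv1 siCtrl replicate 3 or siMED12 replicate 1 gave 0.0531 and 0.159. It also missed the threshold without PC3 siCtrl replicate 3 (0.0586) and PC3 siMED12 replicate 1 (0.0579) or 3 (0.067), from the same test.

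The second set of comparisons was between the siCtrl groups of the lines, which share their controls pairwise. Here many members differed, as many genes of every kind did. Between 22Rv1 and LNCaP, 34 of 96 members passed, 22 higher and 12 lower in 22Rv1, against 43.2% of all tested genes (22% higher and 21.2% lower). Between PC3 and LNCaP, 47 passed, 15 higher and 32 lower in PC3, against 54.7% of all genes (29.2% higher and 25.5% lower). Between PC3 and 22Rv1, 58 passed, 17 higher and 41 lower, against 54.9% (28.7% higher and 26.1% lower).

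MT-encoded and nuclear subunits moved apart in PC3. Against LNCaP, 6 of the 11 MT-encoded genes were called higher and none was called lower, with a median of 0.46. By direction alone 10 were higher and 1, MT-CO3, was lower. Of the nuclear subunits 8 were called higher and 30 called lower, with a median of -0.26. Against 22Rv1 the MT-encoded median was 0.50 with 6 called higher and none called lower. The nuclear median was -0.39 with 10 called higher and 38 called lower. Medians of all tested genes were 0.05 and 0.01. Of all tested genes 29.2% were called higher and 25.5% lower against LNCaP, and 28.7% and 26.1% against 22Rv1. The MT-encoded genes share precursors and scaling, so their calls are not separate observations. The log2 ratio of MT-encoded to nuclear counts was 1.75, 1.69 and 1.80 in PC3 siCtrl, 1.35, 1.21 and 1.19 in LNCaP siCtrl and 0.71, 1.27 and 1.13 in 22Rv1 siCtrl. PC3 stood above each other line without overlap, by 0.49 and 0.71 on average, and LNCaP and 22Rv1 overlapped. Between 22Rv1 and LNCaP the medians were -0.06 for MT-encoded and 0.06 for nuclear genes.

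Among MT-encoded genes the largest difference was again at MT-CO1, with 6077, 3728 and 3747 CPM in PC3 siCtrl against 1562, 1731 and 1349 CPM in LNCaP siCtrl. Its log2 difference was 1.55 (SE 0.21, edgeR adjusted p = 1.54e-07), and against 22Rv1 it was 1.04 (SE 0.20, edgeR adjusted p = 6.16e-05). MT-CO1 was also higher in 22Rv1 than in LNCaP, by 0.50 (SE 0.21, edgeR adjusted p = 0.0466), with overlapping groups. This call was lost with DESeq2, with limma, and without LNCaP siCtrl replicate 1 or 3. MT-ND1 was higher in PC3 by 0.64 than in LNCaP and by 0.88 than in 22Rv1 (edgeR adjusted p = 6.73e-05 and 5.80e-07), and MT-ND2 by 0.71 and 0.87 (1.97e-05 and 8.38e-07, from the same test). MT-CO3 did not follow, with -0.24 and -0.04, and it was lower in every PC3 siCtrl library than in every LNCaP siCtrl library.

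**Figure D4:**
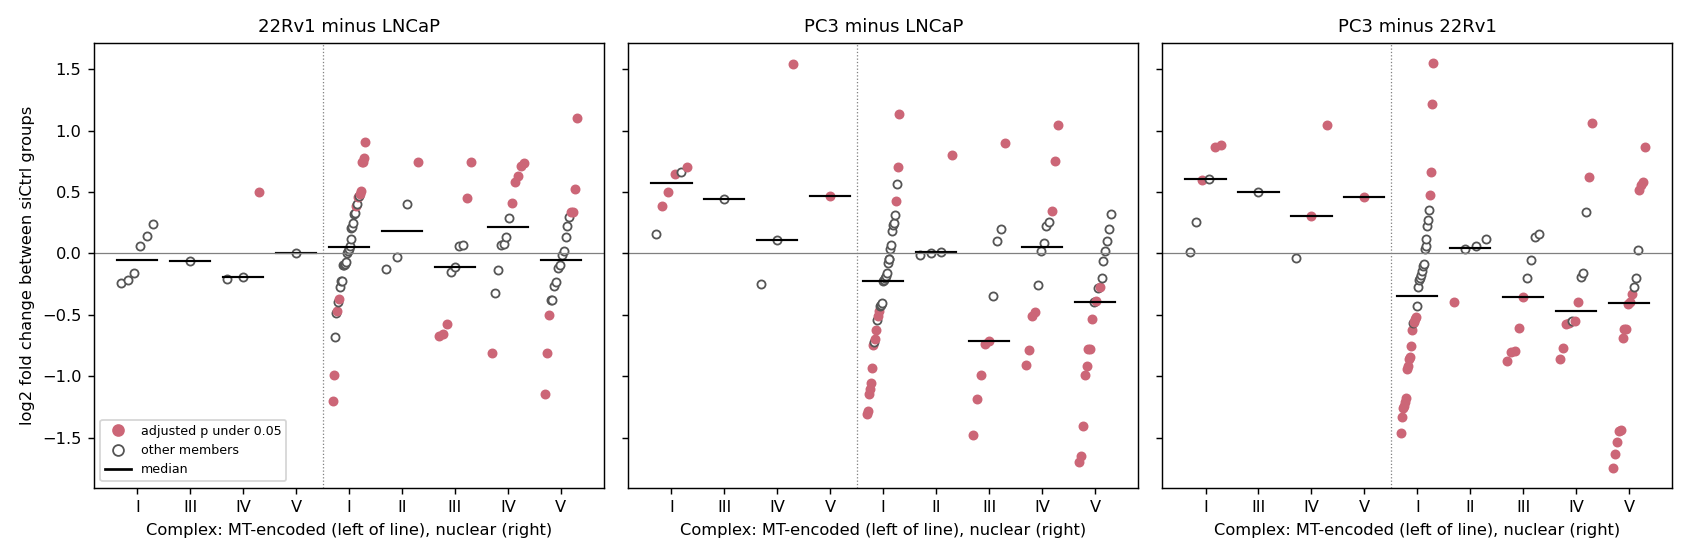
log2 fold changes between the siCtrl groups of the 3 lines for the 88 subunit genes by complex, laid out as for the siMED12 effects, with filled points past the threshold and lines at the medians. In PC3 the MT-encoded genes lie mostly above 0 and the nuclear genes of complexes I, III and V mostly below it, with medians of -0.22, -0.71 and -0.39 against LNCaP.

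The nuclear genes that were low in PC3 included most of the catalytic head of ATP synthase. The head, called F1, is built of subunits alpha, beta, gamma, delta and epsilon, encoded by ATP5F1A to ATP5F1E. ATP5F1A had 381, 388 and 351 CPM in PC3 siCtrl, 1049, 960 and 965 CPM in LNCaP siCtrl and 1316, 1197 and 1242 CPM in 22Rv1 siCtrl. The log2 fold change of PC3 was -1.41 against LNCaP and -1.74 against 22Rv1 (SE 0.11 for both, edgeR adjusted p = 2.35e-12 and 1.38e-14). ATP5F1B, the catalytic beta subunit, had 1428, 1516 and 1422 CPM in PC3, 2843, 2728 and 2668 CPM in LNCaP and 3998, 3731 and 4144 CPM in 22Rv1. Its log2 fold changes were -0.92 and -1.44 (edgeR adjusted p = 8.28e-09 and 3.99e-13). PC3 was thus the lowest line and 22Rv1 the highest for both.

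ATP5F1D had 288, 288 and 254 CPM in PC3 against 905, 935 and 860 CPM in LNCaP, which is -1.70 on the log2 scale (SE 0.13, edgeR adjusted p = 1.54e-12), and against 22Rv1 it was -1.44 (edgeR adjusted p = 8.30e-11). ATP5F1C was lower in PC3 by less, with -0.39 and -0.62 (edgeR adjusted p = 0.00262 and 1.17e-05). ATP5F1E did not share the direction, with 0.02 against LNCaP and 0.52 against 22Rv1, the latter past the threshold (edgeR adjusted p = 0.0014). In all, 4 of the 5 head genes were called lower in PC3 than in LNCaP and in 22Rv1, beside 25.5% and 26.1% of all tested genes. Of the 4 peripheral stalk genes 1 was called lower than in LNCaP, ATP5PB, at -0.78 (edgeR adjusted p = 9.33e-07). ATP5IF1 was lower too, with -0.99 against LNCaP and -0.61 against 22Rv1 (edgeR adjusted p = 7.36e-06 and 0.00338), with 81.3, 69.4 and 60.7 CPM in PC3 siCtrl.

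The c ring of ATP synthase is made of many copies of 1 small protein, and the genes ATP5MC1, ATP5MC2 and ATP5MC3 encode the same mature form of it behind different import sequences. The lines used them in different proportions. ATP5MC2 held 25.7%, 30.5% and 29.6% of the counts of the 3 genes in LNCaP siCtrl, 43.6%, 43.9% and 41.6% in 22Rv1 siCtrl and 12.6%, 12.8% and 13.1% in PC3 siCtrl. ATP5MC3 held 66.2%, 63.8% and 64.0%, then 45.9%, 46.6% and 50.6%, then 76.0%, 75.5% and 74.4% in the same order. Neither share overlapped between lines. ATP5MC1 held the remainder, 5.69% to 8.09% in LNCaP, 7.85% to 10.5% in 22Rv1 and 11.4% to 12.5% in PC3. Genes on the same strand overlap the last 500 bases of ATP5MC2 (RPL31P51) and ATP5MC3 (Y_RNA). The part of these overlapping genes in the shares was not tested.

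In levels, ATP5MC2 was at 221, 258 and 260.1 CPM in PC3 siCtrl against 696, 768 and 853 CPM in LNCaP siCtrl, which is -1.65 on the log2 scale (SE 0.13, edgeR adjusted p = 2.62e-12). ATP5MC3 was at 802, 789 and 778 CPM in 22Rv1 against 1789, 1607 and 1843 CPM in LNCaP, or -1.15 on the log2 scale (SE 0.11, edgeR adjusted p = 2.02e-10). With siMED12 the shares of ATP5MC2 were 24.4%, 28.4% and 27.2% in LNCaP, 47.4% and 42.9% in 22Rv1 and 13% and 14.0% in PC3, which overlapped with siCtrl in each line. The proportions thus differed between lines by more than they differed between siRNA pools.

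**Figure D5:**
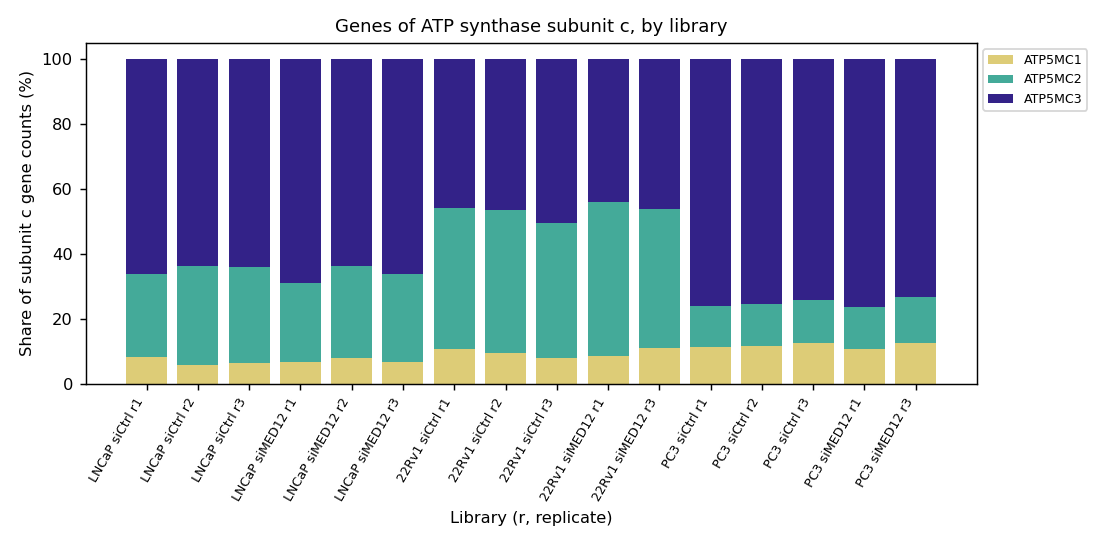
Share of ATP5MC1, ATP5MC2 and ATP5MC3 in the summed counts of these 3 genes for ATP synthase subunit c, as stacked bars for each of the 16 libraries. ATP5MC2 takes 41.6% to 47.4% in 22Rv1, 24.4% to 30.5% in LNCaP and 12.6% to 14.0% in PC3 with either siRNA pool.

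In complex I, 3 of 34 nuclear subunits were called higher and 11 lower in PC3 than in LNCaP, beside 29.2% and 25.5% of all tested genes. Against 22Rv1, 4 were called higher and 15 lower, beside 28.7% and 26.1% of all tested genes. NDUFS4, an accessory subunit needed for a stable complex, had 27.1, 21.0 and 21.7 CPM in PC3 against 59.6, 50.1 and 62.5 CPM in LNCaP (-1.31 on the log2 scale, SE 0.25, edgeR adjusted p = 3.54e-05). NDUFB9 went the other way with 1108, 1169 and 1225 CPM against 535, 494 and 565 CPM (1.13, SE 0.11, edgeR adjusted p = 2.15e-10). NDUFC2 was lowest in 22Rv1, with 14.3, 8.36 and 14.1 CPM against 40.0, 38.9 and 31.8 CPM in PC3 (1.55 for PC3 minus 22Rv1, edgeR adjusted p = 0.000126). NDUFA6 was at 16.8, 12.6 and 14.5 CPM in PC3 and at 44.3, 26.7 and 47.5 CPM in 22Rv1 (-1.47, edgeR adjusted p = 9.09e-05). NDUFA5 (0.91, edgeR adjusted p = 0.00171) and NDUFB2 (0.78, edgeR adjusted p = 0.000975) were among the members higher in 22Rv1 than in LNCaP. Genes on the opposite strand overlap the 3′ ends of NDUFB9, NDUFC2 and NDUFB2, and of ATP5F1E and ATP5PF in complex V. The sources used here do not state whether counting used strand.

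In complex II, SDHB, the iron-sulfur subunit, was the member called against LNCaP, with 179, 166 and 211 CPM in LNCaP, 337, 286 and 313 CPM in 22Rv1 and 319, 313 and 345 CPM in PC3. The log2 fold changes were 0.74 and 0.80 (edgeR adjusted p = 3.31e-05 and 5.70e-06). In complex III 5 of 9 nuclear subunits were called lower in PC3 than in LNCaP and 1, CYC1, was called higher. The shares of all tested genes were 25.5% and 29.2%. UQCRQ had 58.1, 57.8 and 63.6 CPM in PC3, 148, 160.4 and 187 CPM in LNCaP and 125, 90.3 and 96.2 CPM in 22Rv1, so that it was lower than in LNCaP in both other lines (-1.48 and -0.67, edgeR adjusted p = 1.65e-08 and 0.00128). CYC1 was higher in both, by 0.90 in PC3 and 0.75 in 22Rv1 (edgeR adjusted p = 2.55e-08 and 1.65e-06). UQCRFS1, the Rieske iron-sulfur protein, was lower in 22Rv1 than in LNCaP (-0.66, edgeR adjusted p = 4.15e-05).

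In complex IV, COX7A2L, which promotes supercomplex assembly, had 122, 117 and 96.2 CPM in 22Rv1 siCtrl, 182, 191 and 211 CPM in LNCaP and 227, 237 and 236 CPM in PC3. It was lower in 22Rv1 than in LNCaP (-0.81, edgeR adjusted p = 5.40e-05) and higher in PC3 than in 22Rv1 (1.06, edgeR adjusted p = 2.99e-07). COX6C was higher in PC3 than in LNCaP by 1.04 (SE 0.17, edgeR adjusted p = 6.45e-06). ATP5MF of complex V was highest in 22Rv1, with 1.10 for 22Rv1 minus LNCaP and -1.63 for PC3 minus 22Rv1 on the log2 scale (edgeR adjusted p = 1.03e-07 and 2.86e-11). Tissue-specific forms were nearly absent: COX4I2, COX6A2, COX7A1 and COX8C had 0 counts in each of the 16 libraries and COX6B2 had at most 1, whereas COX4I1 had 212 to 764, COX6A1 149 to 357, COX6B1 89 to 244 and COX7A2 14 to 48.

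Of the 8 copies, some share sequence with their parent genes, so their counts are uncertain. NDUFV2P1 had 61 to 141 counts per library while its parent NDUFV2, a core subunit gene of complex I, had 0 to 5 and was not tested. Of the 50-base words of NDUFV2P1, 33.7% also occur in NDUFV2 transcripts, and for COX6A1P2 and COX6A1 the share was 64.4%. A nuclear copy of MT-ATP6 outside the member list, MTATP6P1, had 178 to 326 counts beside 840 to 1482 for MT-ATP6 and shares 46.7% of its words with it. Adding the counts of such nuclear copies to the MT-encoded sum left the log2 ratio difference in LNCaP at 0.28.

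Genes that serve the chain were taken as 10 lists, 135 genes of which 119 were tested. The lists cover assembly factors, electron carriers, mitochondrial DNA and RNA upkeep, nuclear regulators, and the oxygen response of respiration. With siMED12 none of them was called higher, and only genes called lower are listed here. In LNCaP 3 fell, BNIP3 (1342 CPM in siMED12 against 2600 in siCtrl, -0.95 on the log2 scale, edgeR adjusted p = 0.0151) and BNIP3L (297 against 465 CPM, -0.65, edgeR adjusted p = 0.0424), which act in the removal of mitochondria and respond to hypoxia, and MYC (-0.65, edgeR adjusted p = 0.0151), a regulator of growth genes. In 22Rv1 2 fell, BNIP3L (-0.92, edgeR adjusted p = 0.00704) and MYC (-0.88, edgeR adjusted p = 0.000897), and in PC3 none passed. These are 2.52% of the 119 genes in LNCaP and 1.68% in 22Rv1, beside 0.416% and 1.84% of all tested genes. The oxygen response list, with 10 tested genes, held 2 of the 3 calls in LNCaP and 1 of the 2 in 22Rv1. The nuclear regulator list held the other 1 in each of these lines. The calls rested in part on single libraries. Without 22Rv1 siMED12 replicate 3 BNIP3L was at -0.79 (edgeR adjusted p = 0.124) and MYC at -0.98 (edgeR adjusted p = 0.00656), and without siMED12 replicate 1 MYC was at -0.79 (edgeR adjusted p = 0.051). In LNCaP each of the 3 calls was lost without siMED12 replicate 2 and without siCtrl replicate 2. The values without siMED12 replicate 2 were -0.62 for BNIP3, -0.49 for BNIP3L and -0.68 for MYC (edgeR adjusted p = 0.0797, 0.54 and 0.0718). Without siCtrl replicate 2 they were -0.86, -0.61 and -0.49 in that order (edgeR adjusted p = 0.152, 0.251 and 0.279). Calls were also lost without siCtrl replicate 3 for BNIP3 and BNIP3L (edgeR adjusted p = 0.111 and 0.291), without siCtrl replicate 1 for BNIP3L and MYC (0.0643 and 0.0532, same test) and without siMED12 replicate 1 for MYC (0.0981, same test). BNIP3L in LNCaP also missed it without 1 library of another line, 22Rv1 siCtrl replicate 2, PC3 siCtrl replicate 3 or PC3 siMED12 replicate 1 or 3 (edgeR adjusted p = 0.0508, 0.0733, 0.0743 and 0.057). DESeq2 did not call BNIP3 or BNIP3L in LNCaP (adjusted p = 0.247 and 0.0805), nor limma BNIP3L (adjusted p = 0.127). No assembly factor of any complex, electron carrier or gene of mitochondrial DNA upkeep, transcription or RNA processing passed in any line with siMED12.

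Between lines, 25 of these genes were called higher and 38 lower in PC3 than in LNCaP. Against 22Rv1 the counts were 28 and 34, and for 22Rv1 against LNCaP 18 and 24. These are 52.9%, 52.1% and 35.3% of the 119 genes, against 54.7%, 54.9% and 43.2% of all tested genes, so that the lists were called no more often than genes at large. Of 15 genes of mitochondrial DNA upkeep and transcription 6 were called higher and 2 lower in PC3 than in LNCaP. The shares of all tested genes were 29.2% and 25.5%. TFAM, which packages mitochondrial DNA and starts its transcription, was among the higher ones at 181 against 103 CPM (0.81, edgeR adjusted p = 7.00e-05), and it was lowest in 22Rv1 at 54.8 CPM (-0.89 against LNCaP, edgeR adjusted p = 3.00e-04). TOP1MT was higher by 2.03 (edgeR adjusted p = 2.81e-09), and POLG, the catalytic subunit of the mitochondrial DNA polymerase, was lower (-1.37, edgeR adjusted p = 8.42e-05). Of 15 electron carrier genes 8 were called lower in PC3 than in LNCaP, among them ETFB and COQ4, and none was called higher. The same 25.5% and 29.2% of all genes stand beside these counts.

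Promoters were read as 250 bases before to 50 bases after the RefSeq start, and 63 of the 77 nuclear subunits had an entry. The NRF1 letters occurred in 27% of these, against 17.2% of the promoters of tested genes and 8.78% of all 27305 promoters. The ETS letters occurred in 31.7% against 20.3% and 10.7%, and the YY1 letters in 31.7% against 10.8% and 6.82%. E-box letters (9.52% against 10.9% and 7.43%) and the hypoxia element ACGTGC (7.94% against 9.01% and 6.87%) were near the share of all promoters. By complex, NRF1 letters were found in none of the 10 complex IV promoters, of which 5 held the ETS letters, and in 4 of the 7 complex III promoters. These shares describe the letters only and were not tested against the expression values.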

How the data were processed

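The deposited raw counts are 3′ tags (BRB-seq) for 62703 genes, which the authors aligned and counted with STARsolo on GRCh38.p13 (Gencode). The sources used here do not say whether molecular identifiers were collapsed or strand was used. The deposited log2 CPM values of the authors were recomputed from the counts to within 5e-14 and cover the same 10566 genes. In R 4.3.3, edgeR 4.0.16 fitted 6 group means after filterByExpr (min.count 10, min.total.count 15) with TMM. The quasi-likelihood test was run without legacy mode, with Benjamini-Hochberg adjustment over all tested genes and a threshold of 0.05. The SE is the log2 fold change over the square root of F.

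Members and lists were chosen with earlier results of these data known. Named were the MT-encoded members, members past the threshold in a siMED12 contrast or a difference of effects, the 2 highest and 2 lowest non-overlapping members of at least 20 CPM per siMED12 contrast, the 5 largest folds per direction between siCtrl groups, and tissue isoforms with ATP5IF1. Other genes were chosen after their values were seen. Replicate pairs varied 1.60 to 3.43 times more than counting noise, so none counted as a duplicate. Deviations of same-numbered libraries correlated at 0.177, 0.132 and 0.135 in LNCaP, which pairs them from the data, at 0.19 and 0.253 in 22Rv1 and at 0.117 and 0.0787 in PC3, with 2 pairs each. Alternatives were other scalings, no expression filter, DESeq2 1.42.0, limma 3.58.1, a replicate block, each library left out and, chosen after seeing the data, the legacy test. Positions are from Gencode release 44 and promoters from RefSeq (GRCh38.p14).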

Additional observations from a re-analysis of the deposited data

Results flagged for a closer look

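The siMED12 effect on MT-CO1 differed between lines by a test of the difference itself, with -1.41 on the log2 scale for 22Rv1 minus LNCaP (SE 0.31, edgeR adjusted p = 0.0471). The call was lost in 13 of 23 alternatives, among them DESeq2 (adjusted p = 0.399) and limma (adjusted p = 0.12). In LNCaP 1634, 3340 and 1802 CPM with siMED12 stood beside 1562, 1731 and 1349 CPM with siCtrl, and in 22Rv1 1134 and 1275 CPM stood beside 1886, 3062 and 1642 CPM. MT-CO1 was lower in both 22Rv1 siMED12 libraries than in every siCtrl library, and higher in LNCaP siMED12 than in every siCtrl library in 2 of 3 replicates. No group of these data has 4 to 10 libraries, so single libraries were not screened as outliers.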

How the results depend on the processing

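The fold changes of 41 results kept their direction under all 23 alternatives. These were the members called, the highest and lowest non-overlapping members with siMED12 and the largest differences between lines. Most were chosen for groups that did not overlap, so leaving out a library could hardly change their direction. For these the kept direction is no test. Of the 11 MT-encoded members 11 kept their direction in LNCaP, 6 in 22Rv1 and 2 in PC3. The counts of members called between siCtrl groups stayed within 1.5 times. The counts called with siMED12 were small and moved. In LNCaP 0 members became 1 with all genes of at least 1 count and 2 with the replicate block. In 22Rv1 2 became 1 with scaling by relative log expression, 1 with the legacy test, 1 with limma, 0 with DESeq2 and 4 with the replicate block, which added ATP5MF and CYC1. Leaving out 1 library gave 0 to 2 there. For the mean effect 0 became 1 with all genes of at least 1 count (MT-CO1) and 1 with the replicate block (COX5B). For 22Rv1 minus LNCaP 1 became 0 with DESeq2 and 0 with limma, and 0 to 1 when a library was left out. For PC3 minus LNCaP 0 became 1 (MT-CO1) with all genes of at least 1 count and 1 with the replicate block. In 22Rv1 and PC3 the replicate block drops siCtrl replicate 2, and the pairing there rests on 2 pairs. The replicate block gave MT-CO1 -0.55 in 22Rv1 (edgeR adjusted p = 0.0279). The median of MT-encoded genes in PC3 ran from -0.2867 to 0.0828, with a change of sign, when a library was left out. The adjusted p of COX5B in 22Rv1 ran from 0.00789 to 0.275, and that of MT-CO1 from 1.22e-08 (all genes) to 0.424 (DESeq2). The causes were not tested. Depth limits MED12 and members under about 20 CPM most.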

Other observations

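The 3 nuclear subunits with the largest excess in PC3 over LNCaP share a chromosome. COX6C, CYC1, NDUFB9 and UQCRB are the 4 members on chromosome 8, and all lie beyond 90 Mb of it in GRCh38. Their log2 fold changes in siCtrl, PC3 minus LNCaP, were 1.04, 0.90, 1.13 and 0.20, and the first 3 passed the threshold. Of the 174 tested genes of that stretch 121 (69.5%) were called higher and 15 lower. Higher calls made up 27.1% of the 214 tested genes nearer the start of the chromosome and 29.2% of all tested genes. The medians were 1.18, -0.15 and 0.05 in that order. For PC3 minus 22Rv1 the medians were 0.60, -0.02 and 0.01. This stretch was chosen after the values were seen, and what it holds in these cells was not measured.

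Mitochondrial ribosomal RNA had another order among the lines than the messages. The log2 ratio of its counts to MT-encoded subunit counts was -0.21, -0.24 and -0.34 in LNCaP siCtrl, -1.40, -1.20 and -1.46 in 22Rv1 siCtrl and -1.02, -1.19 and -0.98 in PC3 siCtrl. The lines did not overlap. With siMED12 it overlapped with siCtrl in each line, at -0.25, -0.13 and -0.24 in LNCaP, -1.39 and -1.43 in 22Rv1 and -1.14 and -1.04 in PC3. These RNAs are tagged through short or internal stretches of A, so the ratio describes counts and not the amounts of RNA.

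NDUFA4L2, a relative of NDUFA4 that hypoxia induces and that the member rule leaves out, had a mean of 84.2 CPM in LNCaP siCtrl and 33.1 in siMED12 (-1.34 on the log2 scale, edgeR adjusted p = 0.144), 19.4 and 7.78 CPM in 22Rv1, and 0 counts in each PC3 library. The LNCaP siMED12 libraries held 47, 1 and 28 counts, and the value was -0.79 without replicate 2 (edgeR adjusted p = 0.568), -2.20 without replicate 1 (edgeR adjusted p = 0.00375) and -1.41 with the replicate block (edgeR adjusted p = 0.0105).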
